A study of Drosophila melanogaster with 2 samples.

Results

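The 10 genes described here encode molecular chaperones of Drosophila melanogaster, 5 of them grouped as constitutive and 5 as heat-inducible. They are 10 of the 13945 protein-coding genes annotated on the major chromosomes. They were chosen by name, as Hsp83, Hsc70-3, Hsc70-4, Hsc70Cb and DnaJ-1 (constitutive) and Hsp22, Hsp23, Hsp26, Hsp27 and Hsp68 (heat-inducible). A gene was counted as carrying CG30020 when the summit of a peak lay within 500 bp of any of its annotated transcription start sites.

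Chromatin immunoprecipitation with an anti-GFP antibody was followed by sequencing (ChIP-seq) in a transgenic fly line that stably expresses the CG30020 protein with GFP at its C terminus. The material was whole embryos of both sexes, pooled, aged 0 to 24 h, and 1 group with 2 biological replicates (numbered 2 and 3) was analysed. Both replicates carry the same fusion, and neither is labelled with a heat treatment, so the classes below follow the known regulation of the genes and are not states measured in these embryos. The classes are not strict, since Hsp83 and DnaJ-1 are made without heat and are also induced by it. Whole embryos mix all cell types and stages of embryogenesis, and the promoter that drives the fusion is not given in the sources used here.

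Chaperones bind unfolded proteins and help them to fold, to cross membranes or to stay soluble. The Hsp70 and Hsp90 families use ATP for this and are present in every cell, whereas the small heat shock proteins hold unfolded proteins without ATP. On heat stress the heat shock factor binds repeated GAA units, the heat shock element, upstream of the inducible genes. In Drosophila these promoters are known for GAGA repeats, bound by the GAGA factor, and for a paused RNA polymerase that waits just downstream of the start site before heat.

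The deposited data were 4 lists of peaks. The pooled list and the list of each replicate held 30000 peaks each, and the list thresholded by irreproducible discovery rate (IDR, a measure of agreement between replicates) held 5048. All 5048 IDR peaks were also the 5048 strongest peaks of the pooled list, with the same summit and signal. Signal was divided by the median signal of the same list, and is given as that multiple, because its scale is not stated. The weakest IDR peak had 3.79 times the pooled median. Read depth is unknown from these lists, and a peak is 1 value per list, so the replicates are given side by side and no p-value was computed.

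The promoters of 5 of the genes are shown because they span the range of the data. Hsc70-4 and Hsp27 had the strongest summits of their classes, Hsp83 and Hsp26 had summits close to the median of the IDR list, and Hsp68 had the weakest pooled summit and the longest run of GAA units. Each stretch runs 5′ to 3′ on the strand of the gene, from 250 bases before a start site to 49 after it, in the Release 6 (dm6) genome sequence. Capitals mark 3 kinds of match on either strand, namely GAANNTTC or TTCNNGAA (a pair of facing heat shock element units), GAGAG or its complement CTCTC, and TATAAA (the TATA box).
Hsc70-4, chr3R:15242437-15242736, plus strand, pooled summit at base 82: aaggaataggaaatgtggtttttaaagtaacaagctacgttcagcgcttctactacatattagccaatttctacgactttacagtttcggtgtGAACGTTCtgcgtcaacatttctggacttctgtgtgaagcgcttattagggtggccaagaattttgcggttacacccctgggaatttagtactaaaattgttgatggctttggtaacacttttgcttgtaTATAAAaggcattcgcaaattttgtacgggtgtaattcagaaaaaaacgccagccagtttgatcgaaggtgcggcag
Hsp83, chr3L:3192966-3193265, plus strand, around the second of its start sites, pooled summit at base 114: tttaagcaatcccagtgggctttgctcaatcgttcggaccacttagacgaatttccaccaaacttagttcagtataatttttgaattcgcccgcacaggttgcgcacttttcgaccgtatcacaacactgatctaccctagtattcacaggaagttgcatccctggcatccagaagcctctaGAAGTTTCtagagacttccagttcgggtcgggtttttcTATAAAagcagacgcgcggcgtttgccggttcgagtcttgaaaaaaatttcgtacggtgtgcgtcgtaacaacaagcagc
Hsp27, chr3L:9383813-9384112, plus strand, pooled summit at base 68: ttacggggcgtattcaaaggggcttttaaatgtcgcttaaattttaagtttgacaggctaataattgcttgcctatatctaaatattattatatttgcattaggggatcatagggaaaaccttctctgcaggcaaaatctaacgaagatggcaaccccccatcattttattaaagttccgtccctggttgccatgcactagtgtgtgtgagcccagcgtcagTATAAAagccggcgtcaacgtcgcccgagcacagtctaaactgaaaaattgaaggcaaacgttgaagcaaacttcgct
Hsp26, chr3L:9377378-9377677, minus strand, pooled summit at base 97: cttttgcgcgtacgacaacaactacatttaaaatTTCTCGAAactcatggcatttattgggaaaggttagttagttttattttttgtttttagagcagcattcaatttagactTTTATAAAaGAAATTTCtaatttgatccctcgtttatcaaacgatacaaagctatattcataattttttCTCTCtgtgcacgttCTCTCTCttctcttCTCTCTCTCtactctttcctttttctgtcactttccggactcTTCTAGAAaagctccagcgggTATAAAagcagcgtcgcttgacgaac
Hsp68, chr3R:24057261-24057560, minus strand, pooled summit at base 131: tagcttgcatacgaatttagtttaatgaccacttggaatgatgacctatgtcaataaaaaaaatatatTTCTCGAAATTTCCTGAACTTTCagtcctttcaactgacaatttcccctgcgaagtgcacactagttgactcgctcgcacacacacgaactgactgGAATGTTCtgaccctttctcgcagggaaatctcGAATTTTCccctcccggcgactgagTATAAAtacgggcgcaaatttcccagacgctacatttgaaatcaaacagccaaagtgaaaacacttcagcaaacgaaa

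An IDR summit lay at the promoter of 4 of the 5 constitutive genes (80%), namely Hsp83, Hsc70-3, Hsc70-4 and Hsc70Cb. An IDR summit lay at the promoter of 3 of the 5 heat-inducible genes (60%), namely Hsp23, Hsp26 and Hsp27. The share over all protein-coding genes was 30.7%. The classes thus differed by 1 gene, and the exceptions were DnaJ-1 among the constitutive and Hsp22 and Hsp68 among the inducible genes. In the pooled list all 5 genes of each class had a summit, where the share over all protein-coding genes was 46.3%. In replicate 2 all 5 constitutive and 4 inducible genes had one (49.4% of all genes), and in replicate 3 all 5 of each class did (48% of all genes).

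The count of promoters among the strongest peaks differed between the replicates. Among the 5048 strongest peaks of replicate 2 were summits at 3 constitutive and 2 inducible genes, with a share of 29.8% over all genes. Among those of replicate 3 were summits at all 5 constitutive and 3 inducible genes, with a share of 30.8%. Hsc70-3, Hsc70-4, Hsc70Cb, Hsp26 and Hsp27 were among the strongest of both replicates. Hsp83, DnaJ-1 and Hsp23 were among the strongest of replicate 3 but not of replicate 2. The share of all genes among the strongest of both replicates, or of replicate 3 only, is not given here. Whether these members are unusual in this therefore cannot be told.

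**Figure D1:**
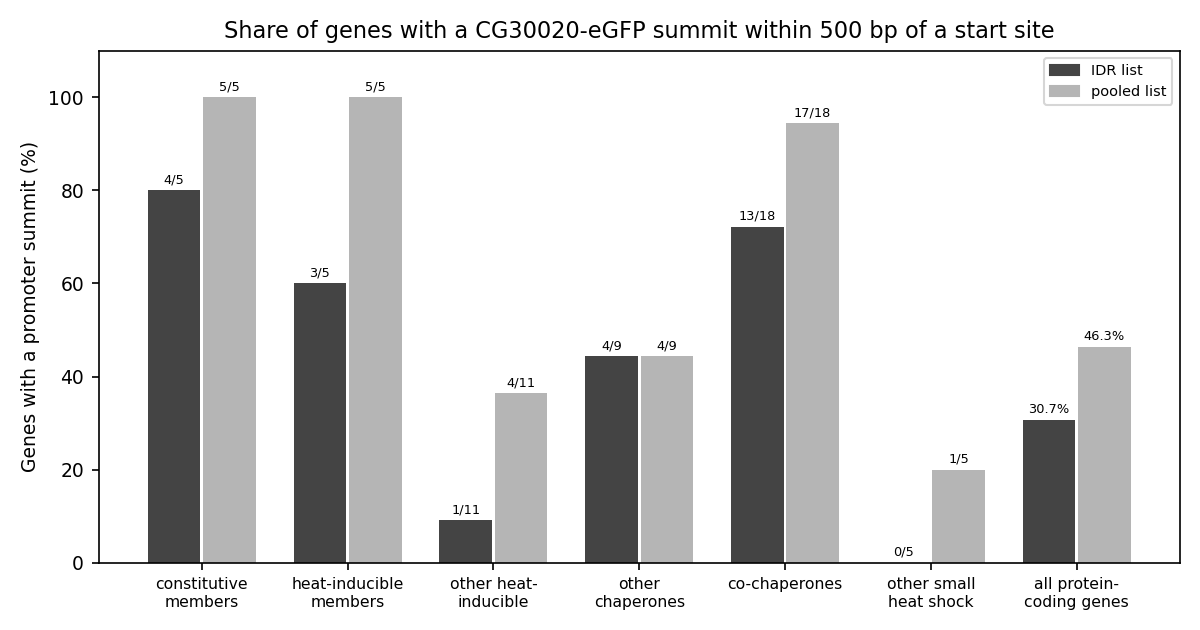
Bars give the share of genes in percent with a summit within 500 bp of a start site in the IDR list (dark) and the pooled list (light), for the constitutive and heat-inducible members, 4 lists of related genes and all protein-coding genes; numbers above the bars are genes with a summit over genes in the list, or the percentage for all protein-coding genes. Constitutive (4/5) and inducible (3/5) members, the other chaperones (4/9) and the co-chaperones (13/18) had shares above the 30.7% of all protein-coding genes in the IDR list. The other heat-inducible genes (1/11) include 6 Hsp70 copies, where a lack of promoter peaks cannot be told apart from a lack of placed reads. The 1 with an IDR summit is a non-coding RNA.

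Hsc70-4 (FBgn0266599, 3R:15242687-15246614, plus strand), which encodes the main cytosolic Hsp70 made without heat, had by far the strongest signal of the 10 genes. The pooled summit had 92.9 times the list median, that of replicate 2 had 83.1 times and that of replicate 3 had 71.2 times, and they ranked 171, 182 and 161 of 30000. The replicates differed by -0.22 on the log2 scale (replicate 3 minus replicate 2). Over the 4187 protein-coding genes with an IDR summit and a summit in both replicates this difference had a median of 0.07 and an SD of 0.52, so the replicates of Hsc70-4 lay within that spread. Its IDR summit was stronger than those of 95.8% of the 4284 genes with one.

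The summit of Hsc70-4 lay upstream of the first start site, at -169 bp in the pooled list, -175 bp in replicate 2 and -169 bp in replicate 3. In the printed stretch it falls 12 bases before the single pair of heat shock units, and the TATA box lies at -27 to -22. The pooled interval was 1233 bp wide. The promoter is divergent, and tefu, which encodes the ATM kinase of the DNA damage response, starts 451 bp away on the other strand and 282 bp from the same summit. The signal therefore cannot be assigned to Hsc70-4 alone.

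Hsp83 (FBgn0001233, 3L:3192969-3197059, plus strand) encodes the cytosolic Hsp90, which is abundant without heat and rises further with it. The pooled signal was 7 times the median, against 2.71 in replicate 2 and 7.12 in replicate 3, with ranks of 2622, 5775 and 2038. Replicate 3 was higher by 1.40 on the log2 scale, a signed difference above that of 98.5% of the 4187 genes, so the level at Hsp83 rests more on replicate 3. The pooled summit lay in the 5′ UTR, at +110 bp from the first start site and -137 bp from the second, each used by 1 of 2 annotated transcripts. Replicate 2 placed it at -98 bp and replicate 3 at -132 bp from the second start. The pair of heat shock units lies at -68 to -61 and the TATA box at -30 to -25 from that second start. CG14965 starts 478 bp from the first start site on the other strand.

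Hsc70-3 (FBgn0001218, X:11801696-11807117, minus strand) encodes BiP, the Hsp70 of the endoplasmic reticulum. Its strongest summit had 6.9 times the median in the pooled list, 4.05 in replicate 2 and 6.33 in replicate 3, with ranks of 2663, 3862 and 2431. Replicate 3 was higher by 0.64 on the log2 scale, a signed difference above that of 88.1% of genes. That summit lay at -203 bp in the pooled list, -216 bp in replicate 2 and -236 bp in replicate 3. Hsc70-3 has 4 annotated start sites, and its promoters held 6 pooled summits, 5 in replicate 2 and 5 in replicate 3, of which only the strongest pooled one was in the IDR list.

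Hsc70Cb (FBgn0026418, 3L:14037019-14043686, plus strand, named Hsp110 in the annotation) encodes an Hsp110 protein, a nucleotide exchange factor of Hsp70. It was the most even of the constitutive genes between replicates. The signal was 5.54 times the median in the pooled list, 4.48 in replicate 2 and 4.58 in replicate 3, with ranks of 3449, 3484 and 3600, and the replicates differed by 0.03. The summit lay on the first start site, at +10, +5 and +39 bp, downstream of the position of most genes. That site is used by 7 of 8 annotated transcripts, and the summit lay at -226, -231 and -197 bp from the second. An antisense RNA, asRNA:CR42871, starts 193 bp from the same summit.

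DnaJ-1 (FBgn0263106, 3L:5750029-5752189, minus strand) encodes an Hsp40, a J-domain protein that stimulates the ATPase of Hsp70, and is itself induced by heat. In the grouping used it was the constitutive gene without an IDR summit, and it missed that list narrowly. The pooled summit ranked 5150, which is 102 ranks past the end of the IDR list, with a deposited signal of 176 where the weakest IDR peak had 180. The signal was 3.71 times the median in the pooled list, 1.92 in replicate 2 and 3.94 in replicate 3. Replicate 3 was higher by 1.03 on the log2 scale, a signed difference above that of 96.4% of the 4187 genes. The level at DnaJ-1 thus rests more on replicate 3. The strongest summit lay at -139 bp in the pooled list, -237 bp in replicate 2 and -86 bp in replicate 3. The replicates' strongest summits were thus 151 bp apart, against a median of 28 bp over the 4187 genes, all of which have an IDR summit. Replicate 3 also held a weaker summit at -290 bp, at 2.63 times the median, which is nearer to that of replicate 2. The closest IDR summit lay 16830 bp away, at scny, a deubiquitinase gene.

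**Figure D2:**
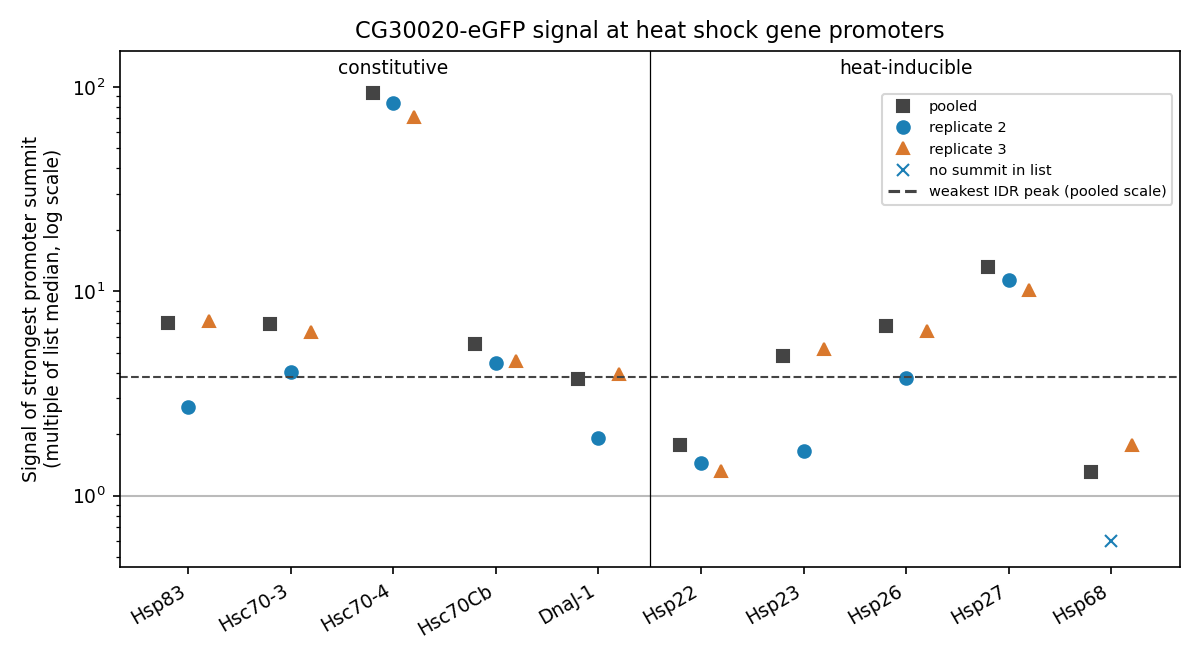
Points give the signal of the strongest summit within 500 bp of a start site for each gene, as a multiple of the median peak of the pooled list, replicate 2 and replicate 3 (log scale); the dashed line is the weakest IDR peak on the pooled scale (3.79), the grey line the list median, and a cross marks no summit in the list. Hsc70-4 stands far above the rest at 71.2 to 92.9, Hsp27 leads the inducible genes at 10.1 to 13.1, and Hsp22 and Hsp68 lie below 2 in every list that held them.

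Hsp27 (FBgn0001226, 3L:9384063-9385694, plus strand) encodes a small heat shock protein that is also under developmental and ecdysone control. It had the strongest signal of the inducible genes, with 13.1 times the median in the pooled list, 11.3 in replicate 2 and 10.1 in replicate 3, and ranks of 1103, 1099 and 1232. The replicates differed by -0.17, within the spread over genes, and 74.9% of genes with an IDR summit had a weaker one. The summit lay at -183, -165 and -183 bp in these lists. The printed stretch of Hsp27 holds a TATA box at -28 to -23 and no match to the heat shock element letters used here, which require every base of each unit. GAA units with mismatches, or farther upstream, were not searched.

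Hsp26 (FBgn0001225, 3L:9376418-9377427, minus strand) encodes a small heat shock protein that is also made in the ovary and early embryo. Its signal was 6.74 times the median in the pooled list, 3.78 in replicate 2 and 6.36 in replicate 3, with ranks of 2743, 4138 and 2416 and a replicate difference of 0.75. The level was thus close to those of Hsp83 and Hsc70-3 in the pooled list. The summit lay at -154, -142 and -156 bp from the first start site, and at -206, -194 and -208 bp from the second. In the printed stretch it falls between a pair of heat shock units at -216 to -209 and another at -128 to -121, upstream of the GAGA repeats at -68 to -31. These positions count from the first start. A further pair lies at +3 to +10 and a TATA box at +24 to +29 from it. From the second start this pair lies at -49 to -42 and this TATA box at -28 to -23.

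Hsp23 (FBgn0001224, 3L:9381882-9382765, plus strand) is another small heat shock protein gene with developmental expression. Its strongest summits had the largest difference in signal between replicates among the 9 members with a summit in both. Its signal was 4.85 times the median in the pooled list, 1.65 in replicate 2 and 5.19 in replicate 3, with ranks of 3954, 9284 and 3121. Replicate 3 was higher by 1.65 on the log2 scale, a signed difference above that of 99.3% of genes. The deposited −log10 q value was 4.29, the maximum of the list, in replicate 3 and 2.14 in replicate 2. The strongest summit lay at -146 bp in the pooled list and -147 bp in replicate 3, but at -16 bp in replicate 2. A weaker summit at +56 bp, at 1.6 times the median in the pooled list and 1.33 in replicate 3, is nearer to that of replicate 2. The replicate 2 interval also covers the position of the IDR summit. The strongest summit of replicate 2 thus differed from the IDR summit of Hsp23 in level and position, and the replicates' values may not belong to the same summit.

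Hsp22 (FBgn0001223, 3L:9372931-9374964, plus strand) encodes a small heat shock protein of mitochondria. It had no IDR summit, and its strongest summits were weak, with 1.78 times the median in the pooled list, 1.44 in replicate 2 and 1.32 in replicate 3. The ranks were 9485, 10582 and 11931, and the −log10 q values were 3.10, 1.61 and 2.47. The lists did not agree on which summit was strongest. The pooled one lay at -447 bp from the second start site, that of replicate 2 at -411 bp from the first, and that of replicate 3 at +271 bp from the first. A summit at -447, -485 and -435 bp from the second start was present in all 3 lists, at 1.78, 0.892 and 1.2 times the median. A summit at -331, -411 and -341 bp from the first start was present in all 3 as well, at 1.47, 1.44 and 0.893 times, and it lies within 500 bp of 2 other genes. Its pooled position is -122 bp from a start of CG4456 (Hsp67Bb) and -103 bp from that of the divergent Hsp67Bc, both nearer than that of Hsp22. CG4456 also has a start site at the first start of Hsp22, so every summit at that start belongs to both genes.

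Hsp68 (FBgn0001230, 3R:24055080-24057310, minus strand) encodes a heat-inducible protein of the Hsp70 family. It had the weakest pooled summit, at 1.3 times the median with rank 12118 and a −log10 q value of 1.76. Replicate 3 held a summit at 1.78 times the median with rank 9200, and replicate 2 held none, the nearest being 728 bp away. The summits lay at -120 bp in the pooled list and -143 bp in replicate 3. The closest IDR summit lay 890 bp from the start of Hsp68 and 87 bp from that of SMC1, a cohesin subunit gene. Hsp68 and SMC1 start 977 bp apart on opposite strands.

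The signal of the classes overlapped. All 10 genes had a pooled summit, with a median of 6.9 times the list median over the constitutive genes (range 3.71 to 92.9) and 4.85 times over the inducible genes (range 1.3 to 13.1), beside 5.64 over the 6463 genes with a pooled summit. In replicate 3 the medians were 6.33 and 5.19, beside 4.61 over all genes with a summit. In replicate 2 the 5 constitutive genes had a median of 4.05, and the 4 inducible genes with a summit, which leave out Hsp68, had 2.72, beside 4.09 over all genes with a summit. The inducible median thus lay above that of all genes in replicate 3 and below it in replicate 2 and in the pooled list. Without Hsc70-4 and Hsp27, no member had more than 7.12 times the median in any list.

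**Figure D3:**
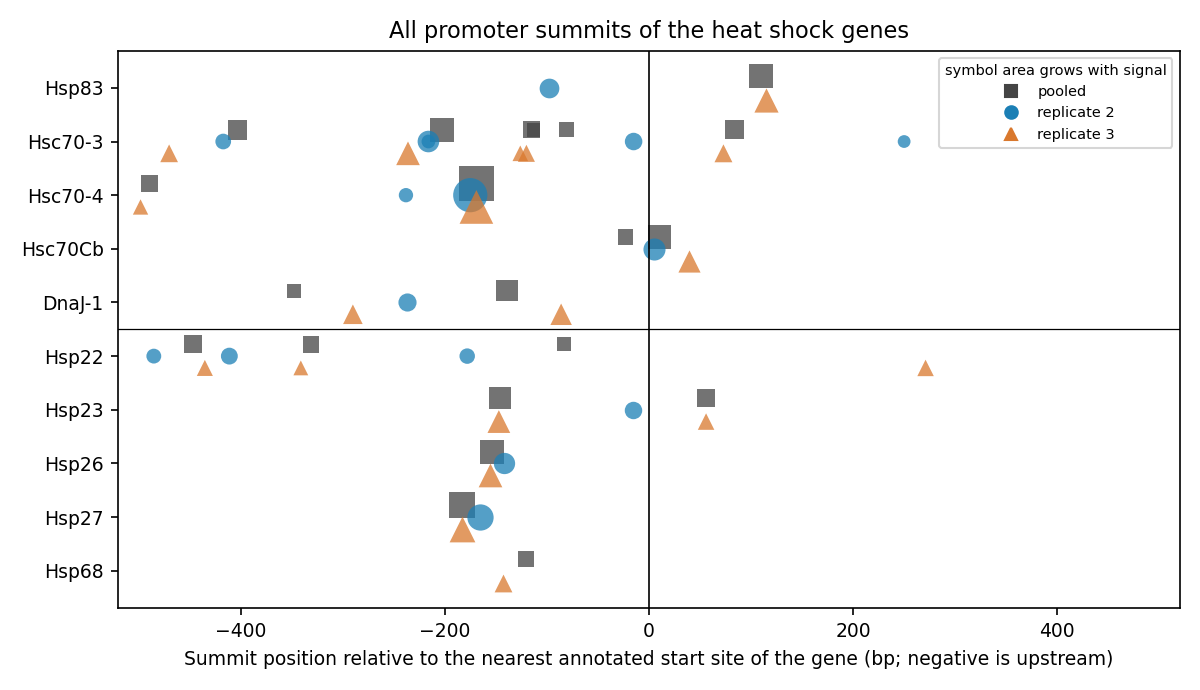
Every summit within 500 bp of a start site is drawn at its distance in bp from the nearest annotated start site of the gene (negative is upstream), for the pooled list, replicate 2 and replicate 3; symbol area grows with signal. The strongest summits of Hsc70-4, Hsp26 and Hsp27 stack between -142 and -183 bp in all 3 lists. Those of Hsp22 and DnaJ-1 scatter, and that of Hsp23 in replicate 2 lies apart from those of the other lists.

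The position of the summits was upstream in most members. The pooled summit lay upstream of the nearest start site in 8 of the 10 genes, with a median of -150 bp. In the IDR list it was upstream in 2 of the 4 constitutive and all 3 inducible genes with a summit. Over the 4284 genes with an IDR summit, 90.1% had it upstream, with a median of -116 bp and quartiles of -189 and -50 bp. All 5 inducible genes had the pooled summit upstream, between -447 and -120 bp. Of the constitutive genes, Hsp83 and Hsc70Cb had it downstream, at +110 and +10 bp. Both summits are upstream of the second start site of their gene, at -137 and -226 bp. The 3 inducible genes with an IDR summit lay within a narrow range, at -183 to -146 bp. In the genes with summits in both replicates, the strongest ones were 6 bp apart at Hsc70-4, 14 bp at Hsp26, 18 bp at Hsp27, 20 bp at Hsc70-3 and 34 bp at Hsp83 and Hsc70Cb. They were 131 bp apart at Hsp23, 151 bp at DnaJ-1 and 682 bp at Hsp22.

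Of the 5 inducible genes, 4 are neighbours and do not count as separate places in the genome. Hsp22, Hsp26, Hsp23 and Hsp27 lie in the cluster of small heat shock genes at cytological position 67B, which spans 14184 bp (3L:9371511-9385694) and overlaps 10 annotated genes. With 500 bp on either side the cluster held 4 IDR summits, 12 pooled summits, 10 in replicate 2 and 16 in replicate 3. Of the 4 IDR summits, 3 were those of Hsp26, Hsp23 and Hsp27. The other lay between Hsp23 and Hsp27, at 4.13 times the median in the pooled list, 3.06 in replicate 2 and 3.5 in replicate 3, outside 500 bp of any start site of the members. Hsp67Ba, Hsp67Bb (CG4456 in the annotation) and Hsp67Bc, the other heat-inducible genes of the cluster, had no IDR summit.

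**Figure D4:**
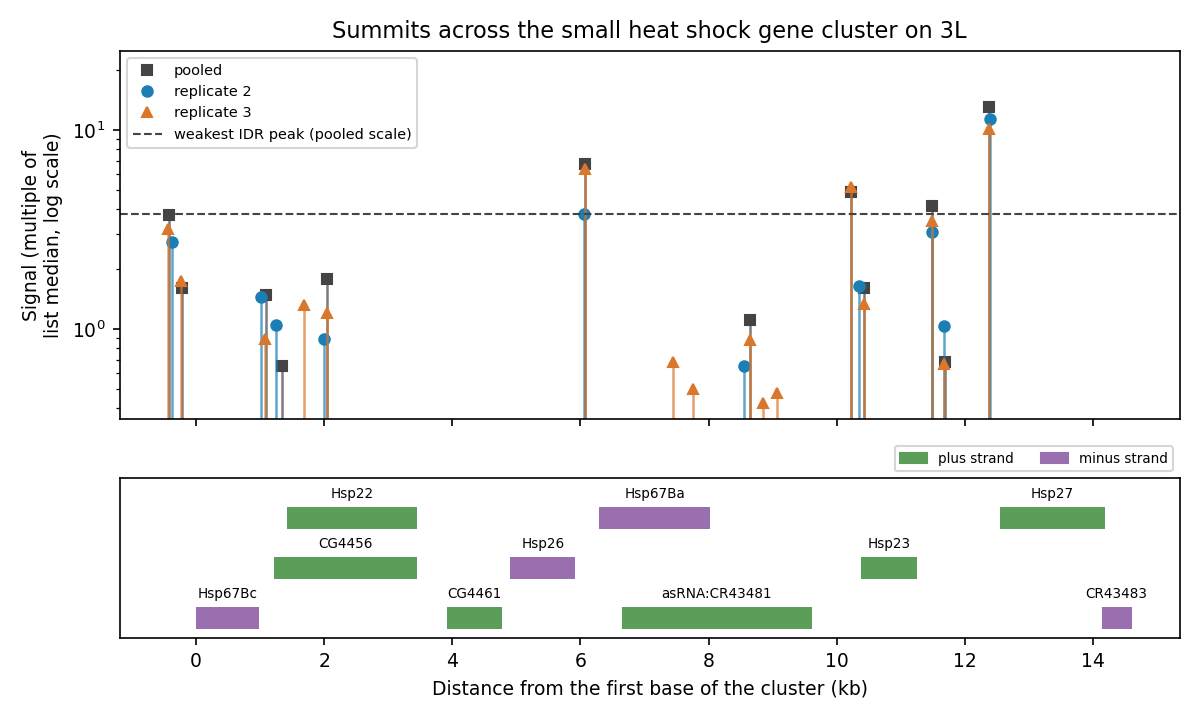
The upper panel gives the signal of each summit (multiple of the list median, log scale) against the distance in kb from the first base of the 67B cluster for the pooled list, replicate 2 and replicate 3, with the weakest IDR peak dashed (3.79); the lower panel draws the genes by strand. Summits above the line in the pooled list stand upstream of Hsp26, Hsp23 and Hsp27 and between Hsp23 and Hsp27, and the region of Hsp22 stays below it.

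The surroundings of the members also differed in how much of them IDR peaks covered. Peaks covered 4.82% of the 100-kb bin of Hsc70-4, 4.51% of that of Hsp83, 3.74% of that of Hsc70-3 and 3.31% of that of Hsc70Cb. They covered 2.4% of the bin of the 67B cluster, 2.19% of that of Hsp68 and 0.71% of that of DnaJ-1. The median bin was covered to 1%. The bins of all members but DnaJ-1 were thus more densely covered than the median, including those of Hsp22 and Hsp68, which had no IDR summit. A member's own IDR peaks count in its bin, and the part of this in the counts above was not tested.

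Sequence matches were searched on both strands from 250 bases before to 49 after every start site of each gene. A pair of facing heat shock units was found in all 5 constitutive and in 4 inducible genes, Hsp27 being the exception, and in 19.9% of all protein-coding genes. The element of 3 units, in which a further facing unit follows the pair at the same spacing, was found in Hsp68 and at internal start sites of Hsc70-4, and in 0.567% of all genes. GAGAG was found in Hsc70-3, Hsc70-4, Hsc70Cb, Hsp22, Hsp23 and Hsp26 (36.3% of all genes), and TATAAA in all 10 (51.2% of all genes). The DNA replication-related element TATCGATA, a site of housekeeping promoters, was found in Hsp83, Hsc70Cb and DnaJ-1 and in no inducible gene (10.2% of all genes). CGATA, which is part of that element and is bound by the insulator protein BEAF, was found in all 5 constitutive and 3 inducible genes (53% of all genes). The core of promoter Motif 1, GTCACAC, was in no member (11.1% of all genes), and the E-box CAGCTG was in 1 gene of each class, Hsc70-3 and Hsp22 (22.3%). The constitutive genes had 15 start sites searched and the inducible genes 7, so the counts of the classes are not on equal lengths, and a match is a run of letters and not a measured site.

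The same letters were then searched around the summits. Within 100 bp of the pooled summit a pair of heat shock units was found in 3 constitutive genes (Hsp83, Hsc70-4 and Hsc70Cb) and 3 inducible genes (Hsp23, Hsp26 and Hsp68), and in 10.5% of the 3541 IDR peaks at promoters. GAGAG was found there in no constitutive and 3 inducible genes (Hsp23, Hsp26 and Hsp27), and in 14.6% of the peaks. The DNA replication-related element was found in 2 constitutive genes (Hsc70Cb and DnaJ-1) and no inducible one, and in 13.2% of the peaks. These shares are over IDR peaks, to which the pooled summits of DnaJ-1, Hsp22 and Hsp68 do not belong. Hsp68, with 3 overlapping matches to the element of 3 units between -182 and -160, had the weakest pooled summit. Hsc70-4, with the strongest pooled summit of all members, held a pair of units near that summit and the element of 3 units at internal start sites. Hsp27, with no exact match in the windows searched, had the strongest summit of its class. Whether such matches go with signal was not tested.

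**Figure D5:**
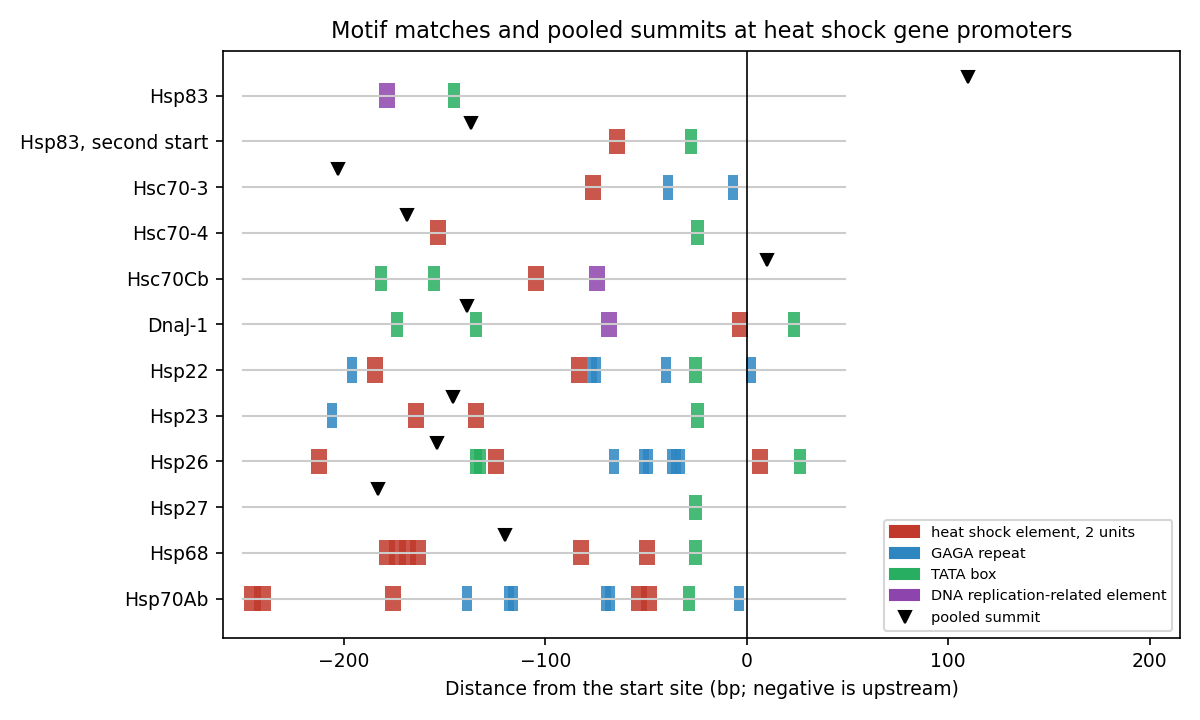
Coloured boxes give matches to 4 motifs on either strand by distance in bp from the start site nearest to the pooled summit (for Hsp83 also from its second start), from 250 bp before it to 49 bp after it, and black triangles give pooled summits inside the drawn range. Hsp70Ab, which had no summit within 500 bp of its start, is drawn for comparison. Pairs of heat shock units occur at members with strong and with weak summits, and Hsp27 has none.

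Related genes were counted in the same way, beside the share of 30.7% over all protein-coding genes in the IDR list. Of 11 other heat-inducible genes, 1 had an IDR summit (9.09%), namely lncRNA:Hsromega, a non-coding RNA of the heat shock response, with a summit at +156 bp and 1.18 times the IDR median. The 6 Hsp70 genes, the most strongly heat-induced of the fly, had no summit within 500 bp in any of the 4 lists, although each held the heat shock element of 3 units and GAGAG in its promoter. These genes are near-identical copies, and between 0% and 42.5% of the 50-base words around their start sites occur once in the genome, against 96.4% at Hsp83 and 100% at the other members. Between the starts of Hsp70Aa and Hsp70Ab a summit lay 923 bp from that of Hsp70Aa in the pooled list, 925 bp in replicate 2 and 890 bp in replicate 3. It had 2, 1.23 and 1.92 times the median, and no IDR summit lay there. Whether reads that map to several places were kept is not given in the sources used here. The lack of peaks within 500 bp of the Hsp70 starts therefore cannot be told apart from a lack of placed reads.

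Of 9 other chaperone genes made without heat, 4 had an IDR summit (44.4%), namely Hsc70-5 (mitochondrial Hsp70), Trap1 (mitochondrial Hsp90), Gp93 (Hsp90 of the endoplasmic reticulum) and Hsp60A (mitochondrial chaperonin), at 1.88, 0.897, 0.959 and 0.71 times the IDR median. On the same scale the members had 12.9 (Hsc70-4), 1.83 (Hsp27), 0.974 (Hsp83), 0.96 (Hsc70-3), 0.938 (Hsp26), 0.771 (Hsc70Cb) and 0.675 (Hsp23), and the median over all genes with an IDR summit was 1.13. Of 18 co-chaperones of Hsp70 and Hsp90, 13 had an IDR summit (72.2%, beside 30.7% over all protein-coding genes). They were Hop, Cdc37, STUB1, Droj2, mrj, Csp, DnaJ-H, DnaJ-60, P58IPK, Sec63, Sgt, CG1416 and Unc45, at 0.54 (Csp) to 8.04 (CG1416) times the IDR median. None of 5 other small heat shock genes had one. Hsf, which encodes the heat shock factor, had no IDR summit, and its pooled summit at +50 bp had 2.8 times the median, with 1.92 in replicate 2 and 2.75 in replicate 3.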

How the data were processed

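The authors deposited 4 peak lists in narrowPeak format on assembly dm6: replicate 2, replicate 3, both pooled, and an IDR-thresholded list derived from the others, with peaks called against 1 control alignment, per the notes deposited with the samples. Aligner and peak caller: not given in the sources used here. The control reads were not analysed here. The authors' signal value has no stated scale, so it was ranked within a list or divided by that list's median. The deposited −log10 q value was capped at 4.09 (replicate 2), 4.29 (replicate 3) and 4.23 (pooled and IDR). The summit was taken as the authors' deposited offset from the peak start.

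Gene models were those of Ensembl release 115, on the coordinates of dm6. All 95048 peaks lay inside its chromosomes, and the 54 listed genes, 6 of them under another symbol, had the same start and end in RefSeq. Summits within 500 bp of any start site were assigned to the gene, the strongest one represented it, and offsets count 0 at the start site. Sequences were read from the RefSeq Release 6 genome. Scripts used Python 3.11.15 with pandas 2.3.3, numpy 2.4.6 and matplotlib 3.10.9, and were tested on simulated data.

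The 10 members and the lists of related genes were chosen with earlier results of these data known. The text names all members, listed genes with an IDR summit, Hsf, genes sharing a member's summit, and the gene at the closest IDR summit of members without one. The Hsp67B and Hsp70 genes and CG14965 were named after their values were seen. With 1 group, no test was run.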

Additional observations from a re-analysis of the deposited data

How the results depend on the processing

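The IDR counts of 4 constitutive and 3 inducible genes came from a single group, so each alternative gives another count and no test. Among the stronger part of the IDR peaks, split at their median signal, 1 constitutive gene (Hsc70-4) and 1 inducible gene (Hsp27) remained, where the share over all genes was 18%. With all pooled peaks the count was 5 in each class, where the share over all genes was 46.3%. With 1 replicate left out, using the strongest peaks of the other, the counts ranged from 3 to 5 (constitutive) and from 2 to 3 (inducible). The share over all genes was 30.8% without replicate 2 and 29.8% without replicate 3. Windows of 200 and 1000 bp gave 3 and 4 constitutive and 3 and 4 inducible genes, the fourth inducible one being Hsp68 through the summit at SMC1, and shares over all genes of 24.9% and 32.9% in place of 30.7%. Interval overlap, the nearest start site only and the most upstream start site only left both counts as they were. The shares over all genes were then 31.8%, 22.3% and 29.3%. The 5048 strongest pooled peaks are the IDR peaks themselves, so their counts and share of 30.7% were bound to be the same. With DnaJ-1 counted as heat-inducible, a choice made after seeing the data, the counts were 4 of 4 and 3 of 6. Measured from the most upstream start site, the Hsp22 pooled summit lay at +619 bp in place of -447 bp, since Hsp22 has start sites 1066 bp apart. With 200 bp the signal was 2.23 times the median at Hsc70-3 and 0.652 at Hsp22, and with 1000 bp it was 8.51 at Hsp68. No paired analysis was possible because the series has 1 group. Depth is unknown, each list but the IDR list stops at 30000 peaks, and a gene without a summit may have a weaker one.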
